A study of Rattus norvegicus with 2 samples.

Results

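The genes of the cytosolic ribosomal proteins, the proteins that build the large and small subunits of the ribosome, were examined in the cervical lymph nodes of control and restraint-stressed rats. They were found by name on the array: every gene whose symbol is Rpl or Rps with a number and, for some, a short ending, together with Rplp0, Rplp1, Rplp2 and Rpsa. This gave 86 of the 36174 genes named on the array, 53 of the large and 33 of the small subunit. The name rule itself uses no measured value, but it was set with earlier results of these data known. Of the 86, 10 carried a name that marks them as a second copy of another ribosomal protein gene: Rpl3l, Rpl7l1, Rpl10l, Rpl22l1, Rpl30l1, Rpl36al, Rpl39l, Rps4x, Rps4y2 and Rps27l. Rps4x is grouped there by its name only, since it is the X-linked gene that normally supplies the small-subunit protein S4.

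Male Sprague-Dawley rats of 10 to 12 weeks were either left unstressed (C) or restrained (RS), and cervical lymph node RNA of each group was hybridized to 1 array. The study restrained rats for several lengths of time, and its text describes the array as that of the shortest. The labels give no time, and how many rats stood behind each array is not stated in the sources used here. A p-value cannot be had from 1 array in each group, and a difference between the arrays has no check against the spread between animals.

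The ribosome reads mRNA on its small subunit and joins amino acids on its large subunit. Its proteins are made in matched amounts, and most of their mRNAs begin with a tract of pyrimidines through which the mTOR pathway, a sensor of nutrients and growth signals, sets how much of them is translated without necessarily changing the amount of mRNA. Lymphocytes that leave rest increase ribosome production, and several genes of the set have tissue-restricted relatives: Rpl3l is known from heart and skeletal muscle, and Rpl10l and Rpl39l are known from testis.

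The tract can be seen at the annotated starts of single members. The following 30-base stretches run 5′ to 3′ from 10 bases before to 20 bases from the RefSeq start (build GRCr8), with the tract in capitals. They were chosen to show members with and without it, including 3 copies beside the gene each is named after.
Rplp0, chr12:46718371-46718400, minus strand: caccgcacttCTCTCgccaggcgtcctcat
Rplp1, chr8:71290853-71290882, minus strand: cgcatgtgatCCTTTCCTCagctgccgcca
Rpl10, chrX:157205840-157205869, plus strand: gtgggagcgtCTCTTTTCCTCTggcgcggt
Rps18, chr20:4933735-4933764, plus strand: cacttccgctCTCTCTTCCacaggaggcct
Rpl22, chr5:168117951-168117980, plus strand: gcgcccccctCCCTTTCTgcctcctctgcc
Rpl22l1, chr2:113683186-113683215, plus strand: gtggatatccggttccgagttgcgcagcgc
Rps4x, chrX:71342902-71342931, minus strand: cgcgcgcagcctccgaccctaatttcttcg
Rps4y2, chr4:183000903-183000932, plus strand: cagctctcctcactcgcttgtgctctggga
Rpl3, chr7:113507971-113508000, minus strand: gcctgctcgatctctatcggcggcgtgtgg
Rpl3l, chr10:14258436-14258465, plus strand: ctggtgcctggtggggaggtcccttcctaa

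The tract was defined as a C at the first base followed by at least 4 bases that are C or T, read on the gene's strand. It was found at 23 of the 69 members with an entry in the table (33.3%), against 881 of all 33469 entries (2.63%). All 23 were among the 60 members that are not copies by name (38.3%), and 0 of 9 copies carried it. The tract was counted at 16 of 43 large-subunit genes (37.2%) and at 7 of 26 small-subunit genes (26.9%), and its length ran from 5 to 12 bases. The count depends on the base at which each start was annotated: Rps4x begins with a C followed by only 3 such bases, and Rpl3 begins with a T.

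Both arrays gave readable signal for nearly the whole set. Of the 86 members, 85 were well above background on both arrays, and the exception was Rpl39l, whose intensities of 2.25 (C) and 4.92 (RS) were not well above background. Of all genes, 21096 passed this limit on either array and 19214 on both. All 76 members that are not copies, and 6 of the copies, lay among the brightest 25% of the 21096 genes by probe signal. These 5274 genes served as a second background. A probe's intensity depends on its sequence as well as on its RNA, so as a measure of RNA it is set only against the same probe on the other array.

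Each array carried 62976 spots. The arrays were scaled by the 75th percentile of their probe intensities, 189 for C and 176 for RS, and no noncontrol spot was saturated. The lymphocyte markers Cd3g of T cells (13692 on the C array, 11604 on the RS array) and Cd79b of B cells (5532 and 4993) were present on both. Red cell markers were higher on the RS array at 7 of 7 measured genes with a median log2 difference of 2.60, and fat markers at 10 of 10 with a median of 1.55. T cell markers had a median of -0.16, with 4 of 15 above 0, and B cell markers one of -0.05, with 4 of 11 above 0. Neutrophil markers were measured at 5 of 8 genes with a median of 0.11, and S100a8 (3.99) and S100a9 (3.78) stood far above the rest. Macrophage markers had a median of 0.02 over 10 genes and endothelial markers one of 0.18 over 9. In bulk tissue, fewer cells of a type and less RNA per cell cannot be told apart, and the part of cell composition in the differences below was not tested.

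The ribosomal protein genes were nearly level between the arrays. Their median log2 difference, RS minus C after scaling, was 0.04, with 50% of genes between -0.02 and 0.10. The median over all 21096 genes was 0.02, with 50% between -0.20 and 0.21, and that over the brightest 25% was 0.04, with 50% between -0.10 and 0.16. A difference within 1.1-fold in either direction was found for 69 of the 85 members (81.2%), against 35.8% of all genes and 51.8% of the brightest 25%. That background is dimmer than the members: its median intensity on the C array was 2057, against 65226 for the members. The share was higher among brighter genes, and no background as bright as the members was made. The 1.1-fold limit was chosen after the values had been seen.

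Few members passed a fold threshold, and those that did were copies. Past 2-fold, 1 member was higher on the RS array (Rpl10l), where 3.46% of all genes were, and 0 were lower, where 4.28% of all genes were. Past 1.5-fold, 3 members were higher (Rpl10l, Rps4y2 and Rpl22l1), against 7.97% of all genes, and 0 were lower, against 8.46%. Among the brightest 25% of genes the shares were 1.52% higher and 2.26% lower past 2-fold, and 3.36% higher and 3.49% lower past 1.5-fold. The scanner software reports an error for each spot, and a difference beyond the 95% limit of the combined error of both arrays was reached by 3 members upward and 0 downward. The shares were 11% and 10.2% of all genes, and 10.1% and 7.26% of the brightest 25%. These were the same 3 genes. That error is smaller for probes in repeated spots, so these shares also depend on the number of spots per probe. It covers the reading of a probe on 1 pair of arrays and not the spread between rats.

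**Figure D1:**
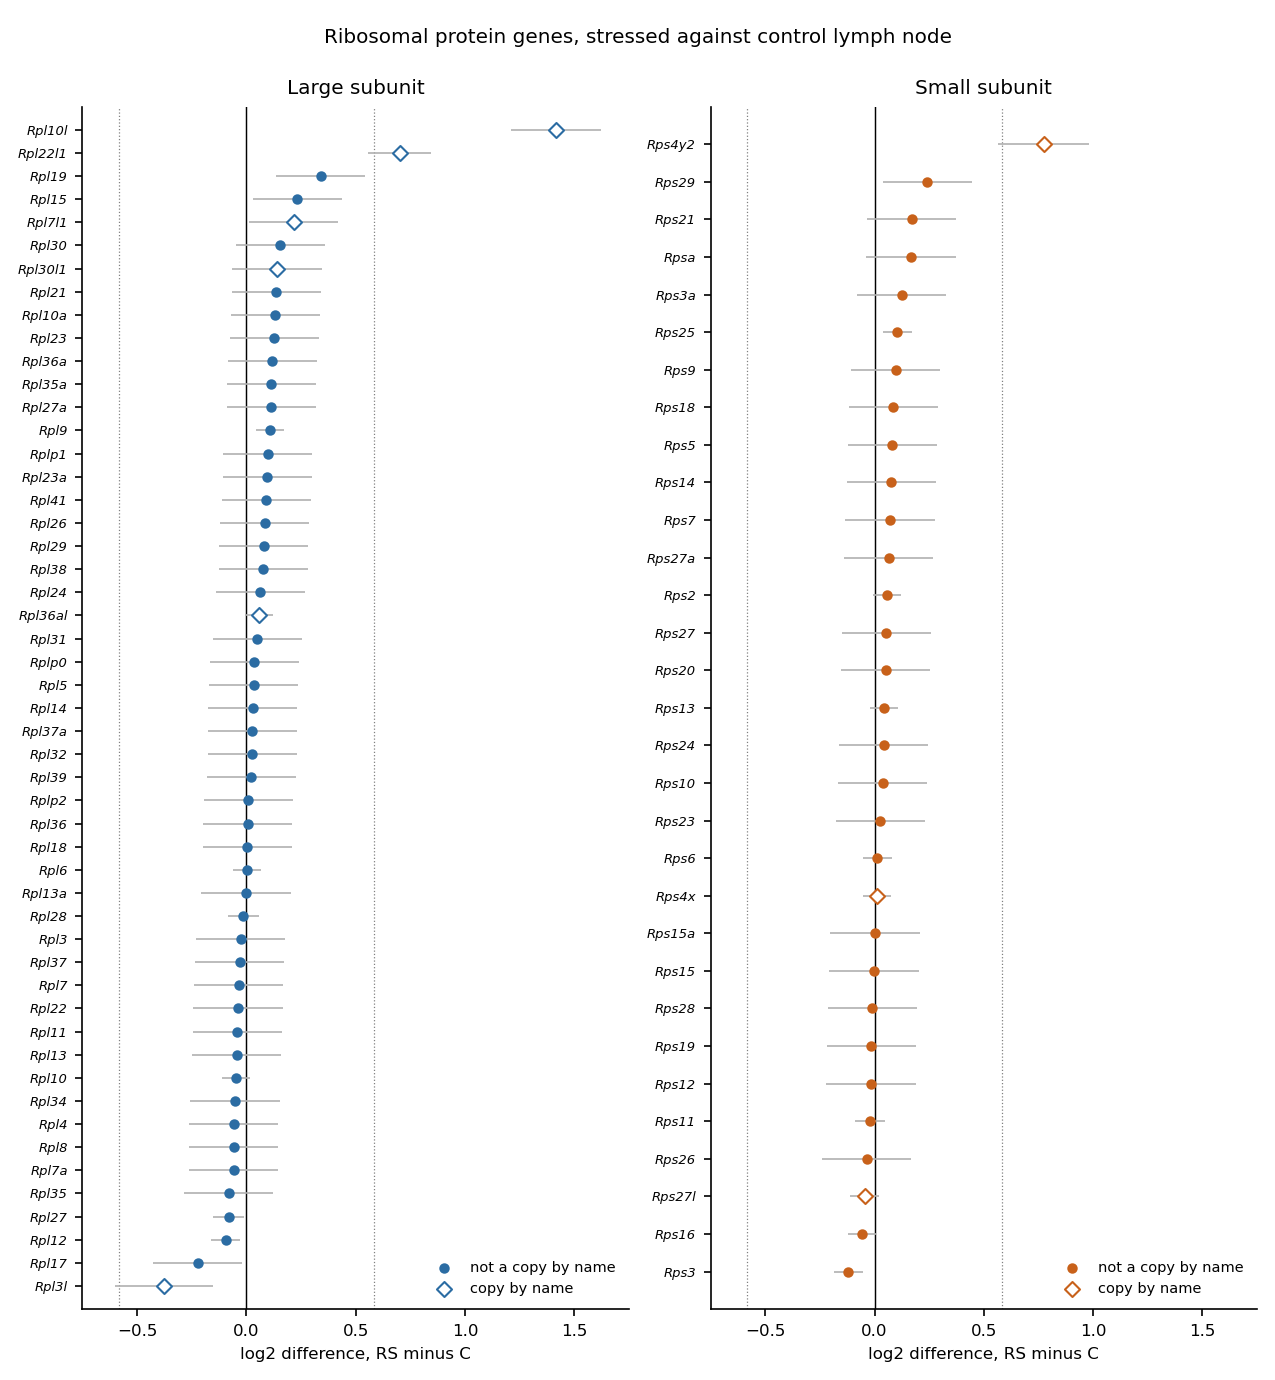
Log2 difference of each ribosomal protein gene between the RS and the C array (x axis), for large-subunit genes (left) and small-subunit genes (right), ordered by difference, without members that are not reported here. Bars are 1 spot error to each side, dotted lines mark 1.5-fold, and open diamonds are copies by name. Rpl10l, Rps4y2 and Rpl22l1 lie past 1.5-fold, while the filled points run from -0.22 (Rpl17) to 0.34 (Rpl19).

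Without the copies, the spread was small. The 76 other members ran from -0.22 to 0.34 with a median of 0.04 and an SD across genes of 0.09, 51 lay above 0 and 25 below, and 0 passed 1.5-fold in either direction. With the copies, 58 of 85 members lay above 0 (68.2%), against 52.1% of all genes and 58% of the brightest 25%. This share moved with the processing: it was 25.9% without scaling the arrays and 55.3% with another background correction (normexp), so the side of 0 on which most members lay depends on the processing. Set against the median of all genes under the same processing, the members' median ran from -0.01 (normexp) to 0.09 (no filter on dim probes), and was 0.03 as reported.

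The subunits were close to each other. The 52 measured large-subunit genes had a median log2 difference of 0.03, with 34 above 0, and the 33 small-subunit genes one of 0.05, with 24 above 0. The large-subunit median was thus lower by -0.02 on the log2 scale, and by -0.03 without the copies, where the medians were 0.03 over 46 large-subunit genes and 0.05 over 30 small-subunit genes. For scale, the typical combined SD of 1 spot of a probe on each array was 0.07, which is not the error of a median over genes. The large-subunit genes other than copies ran from -0.22 to 0.34 and the small-subunit genes from -0.12 to 0.24.

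**Figure D2:**
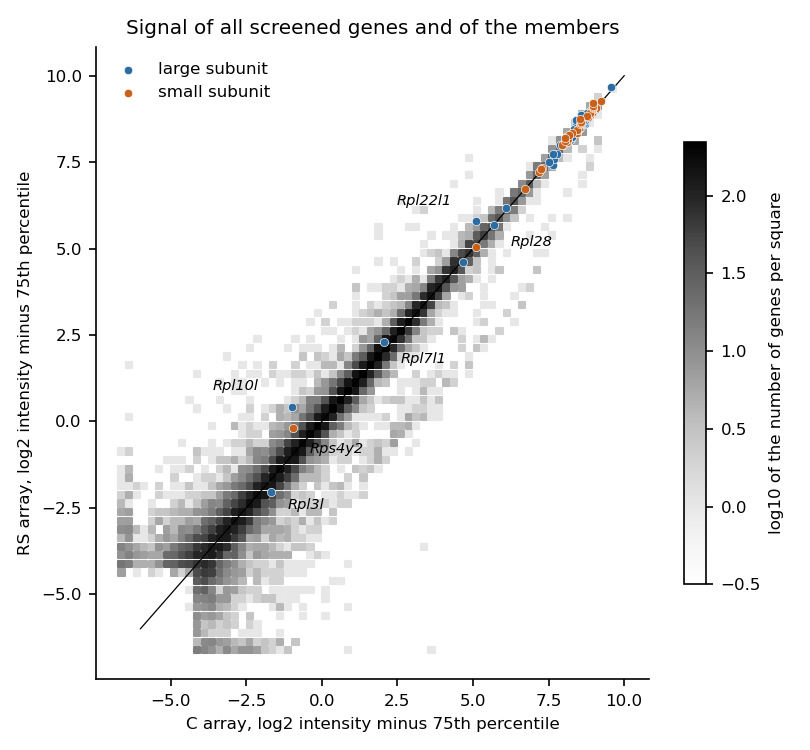
Scaled signal of the C array (x axis) against the RS array (y axis), both as log2 intensity minus the 75th percentile, for all 21096 screened genes (grey squares, darker where more genes lie, on a log scale) and for the large-subunit (blue) and small-subunit (orange) genes. The line marks equal signal. Most members lie near the line at the bright end, and Rpl10l, Rps4y2, Rpl3l, Rpl7l1 and Rpl22l1 lie at lower signal.

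The precision behind these values could be read from repeated spots. Many ribosomal protein probes were printed 10 times on each array: 70 probes of 47 member genes. The SD of the log2 intensity across the spots of such a probe had a median of 0.05 on each array, with a range of 0.02 to 0.12 on the C array and 0.03 to 0.13 on the RS array. Over these 70 probes the log2 difference had a median of 0.01 and a range of -0.52 to 0.16, and 63 of them (90%) were within 1.1-fold. For 68 of the 85 members the chosen probe, the one with the highest signal, lay in 1 spot, with a typical spot error of 0.20. For a probe in 1 spot, a difference of about 0.2 is no larger than this error, which the scanner software reports. The repeated spots spread less, with a typical combined SD of 0.07 for 1 spot of a probe on each array.

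Among the core proteins with repeated spots, Rpl6 of the large subunit had intensities of 33720 to 35463 over 10 spots on the C array and of 31238 to 33295 over 10 spots on the RS array, a log2 difference after scaling of 0.002. Rps6, the small-subunit protein that S6 kinase phosphorylates, gave 49642 to 55765 over 9 spots and 46813 to 55760 over 10 spots, a difference of 0.01. Both genes were level within the spread of their own spots.

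The stalk of the large subunit, which recruits the elongation factors, is formed by the proteins of Rplp0, Rplp1 and Rplp2. Rplp0 gave 85451 on the C array and 81798 on the RS array, a difference after scaling of 0.04. Rplp1 gave 87250 and 87189, a difference of 0.10, and Rplp2 gave 93196 and 87573, a difference of 0.01. All 3 stalk genes lay within 1.1-fold. Rpl12, whose protein sits at the base of the stalk, gave 37841 to 39692 over 10 spots on the C array and 32569 to 35878 over 9 spots on the RS array, a difference of -0.09. Its unscaled spots did not overlap, while after scaling the ranges met.

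The small-subunit genes named by their position in the order included Rps29 at the high end and Rps3 at the low end. Rps29, a small zinc-binding protein, gave 94420 on the C array and 104192 on the RS array, a log2 difference of 0.24 (spot error 0.20), and its other probes gave -0.10 and 0.08. Rps21 gave 93773 and 98515, a difference of 0.17. Neither passed the 95% limit of the spot error. Rpsa, the small-subunit protein also known as the laminin receptor, gave 49825 and 52247, a difference of 0.17, and its other probe gave -0.05. Rps3a gave 95658 and 97392, a difference of 0.12.

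Rps3, which helps to form the channel where mRNA enters the small subunit, was the lowest of the small-subunit genes. Its 10 spots on the C array ran from 63176 to 69725 and its 9 spots on the RS array from 54140 to 59912, a log2 difference after scaling of -0.12 (spot error 0.07). The raw ranges did not overlap, and after scaling they did. Rps16, another small-subunit gene, gave 64411 to 73162 and 56825 to 63103 over 10 spots each, a difference of -0.06. Rps10 and Rps19, the latter known from Diamond-Blackfan anaemia, differed by 0.04 and -0.01. The 5 probes of Rps10 ran from -0.19 to 0.04, and the 5 probes of Rps19 from -0.03 to 0.03.

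Rpl19 and Rpl15 stood near the high end of the large subunit, apart from the copies. Rpl19, one of the large-subunit proteins that contact the small subunit, gave 63419 on the C array and 74996 on the RS array, a difference of 0.34 (spot error 0.20). Its other probe gave 45259 and 40757, a difference of -0.05, so that its probes lay on opposite sides of 0. Rpl15 gave 64758 and 71055, a difference of 0.23, and its other, dim probe gave 0.01. The value of each gene's brightest probe rests on 1 spot per array.

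At the low end stood Rpl17, whose protein lies at the exit of the tunnel through which the new chain leaves. It gave 37659 on the C array and 30138 on the RS array in 1 spot each, a difference of -0.22, and its other probe gave -0.03 with a spot error of 0.06. Rpl27, whose probe was printed in repeated spots, gave 4565 to 5101 over 7 spots and 4081 to 4441 over 9 spots, a difference of -0.08. Rpl35 also differed by -0.08, and Rpl4, a protein that lines the tunnel, Rpl8 and Rpl7a by -0.06 each. Rpl41, the smallest of the ribosomal proteins, gave 144078 and 143422, a difference of 0.09.

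The copies by name behaved less evenly than the other members. Over the 9 that were measured, the median log2 difference was 0.14, the range was -0.38 to 1.42, and 3 lay within 1.1-fold. Signal differed too: Rpl3l, Rpl10l and Rps4y2 read 59.3 to 96.7 on the C array, and the dimmest member that is not a copy 4836. Among brighter copies, Rps4x, Rps27l, Rpl36al and Rpl30l1 lay between -0.05 and 0.14, and Rpl22l1 at 0.70. The part of signal in the unevenness was not tested. Because a copy can resemble its namesake, its probes were compared with the namesake's probes, though not with the namesake's whole transcript. Both probes of Rpl22l1 and the Rpl22 probe at the matching place are printed in 5′ to 3′ direction, with positions in build rn4 as the files give them. Capitals in the first pair mark positions where both carry the same base.
Rpl22l1 probe 1, chr2:116170577-116170636, plus strand: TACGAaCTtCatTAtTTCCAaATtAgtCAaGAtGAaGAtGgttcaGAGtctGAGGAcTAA
Rpl22 matching probe, chr5:169564451-169564510, plus strand: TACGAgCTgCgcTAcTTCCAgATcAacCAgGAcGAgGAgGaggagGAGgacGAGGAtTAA
Rpl22l1 probe 2 (bases 31 to 60), from chr2:116168841-116168900, plus strand: tcctcttctcaaggctgctgctcatcatgg

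The first Rpl22l1 probe and the Rpl22 probe shared 38 of 60 bases, with no shared stretch longer than 6 bases, and both end in a stop triplet with no other stop in that frame. Rpl22l1, the paralogue of Rpl22, gave 6207 to 6616 over 2 spots on the C array and 9688 to 9785 over 2 spots on the RS array. The spots of the arrays did not overlap, and the scaled log2 difference was 0.70 (spot error 0.14), or 1.63-fold higher on the RS array. Its second probe, which lies elsewhere in the gene, gave 250 and 237, a difference of 0.02. The mean over both probes was 0.36, below 1.5-fold, so the call of Rpl22l1 rests on the first probe. That probe also shared 27 bases in a row with the probe of another transcript (ENSRNOT00000040366), which differed by 0.29.

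Rpl22, known for its part in T cell development and for lowering the level of Rpl22l1, showed no such difference. Its brightest probe gave 58654 on the C array and 53336 on the RS array, a difference of -0.04. The probe printed above gave 41881 and 43668 in 1 spot each, a difference of 0.16 (spot error 0.20). Another probe gave 25904 to 27924 and 24047 to 27518 over 10 spots each, a difference of 0.04, and the last gave 0.03. All 4 were below 1.5-fold.

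Rpl10l and Rps4y2 were the other copies past 1.5-fold. The first 30 bases of each probe are given. Neither shared more than 6 bases in a row with a probe of its namesake, but those probes can lie elsewhere in the transcript. Whether the Rpl10l and Rps4y2 probes bind RNA of Rpl10 or Rps4x was not tested.
Rpl10l probe, from chr6:87929885-87929944, minus strand: ggctagaggagttggaagacctgtgaaaag
Rps4y2 probe, from chr4:185978262-185978321, plus strand: ggaaggggcgtttaaatttgtttatacttc

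Rpl10l gave 94.2 on the C array and 235 on the RS array in 1 spot each, a log2 difference of 1.42 (spot error 0.21), or 2.67-fold higher. Rps4y2 gave 96.7 and 154, a difference of 0.77 (spot error 0.21), or 1.71-fold higher. Under the normexp correction these became 1.01 and 0.51, the latter below 1.5-fold. Their namesakes did not share the difference: Rpl10 gave 39861 to 43216 and 34290 to 40498 over 10 spots each, a difference of -0.05, and Rps4x gave 19179 to 20248 and 17369 to 19509 over 10 spots each, a difference of 0.01. The accession of Rpl10l was not matched in the RefSeq gene table.

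The remaining copies passed no threshold. Rpl3l, the muscle form of Rpl3, was the lowest of all members with 59.3 on the C array and 42.7 on the RS array, a difference of -0.38 (spot error 0.22), which became -0.13 under normexp, while Rpl3 itself differed by -0.03. Rpl7l1, the paralogue of Rpl7, gave 792 and 860, a difference of 0.22, and its second probe gave 0.23. Rpl36al, the copy of Rpl36a, gave 12060 to 14032 and 11834 to 13218 over 10 spots each, a difference of 0.06. Rps27l, a paralogue of Rps27 known as a p53 target, gave 6121 to 6989 and 5216 to 6641 over 10 spots each, a difference of -0.05.

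Rpl30l1 and Rpl30, in contrast, share probe sequence. Their probes are printed in full, with the longest shared run in capitals.
Rpl30l1, chr13:93180470-93180529, plus strand: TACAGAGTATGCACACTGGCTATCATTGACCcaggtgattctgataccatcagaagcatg
Rpl30, chr7:69887663-69887722, minus strand: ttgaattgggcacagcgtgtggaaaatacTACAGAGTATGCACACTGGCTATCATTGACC

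The run of 31 bases is the end of the Rpl30 probe and the beginning of the Rpl30l1 probe. Rpl30l1 gave 51155 on the C array and 52658 on the RS array, a difference of 0.14, and Rpl30 gave 49607 and 51585, a difference of 0.15. Such sharing was common: 27 of the 85 chosen probes held a run of at least 25 bases in common with the probe of another gene name, mostly predicted transcripts. The longest was 53 bases, between Rpl37a (0.03) and Rpl37a-ps1 (-0.07). Rpl19 shared 46 bases with LOC100910455, which differed by 0.48. The median difference was 0.07 over these 27 genes and 0.03 over the other 58. For these genes the value belongs to the probe and to whatever transcripts bind it.

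Different probes of a gene usually gave similar values. Of the 60 members with at least 2 probes well above background, up to 7 each, 48 had all log2 differences within 0.25 of each other, and the median distance from the lowest to the highest was 0.09. In 34 of the 60 all probes lay on 1 side of 0. Only 3 genes had probes apart by 0.5 or more, Rpl36a and Rpl22l1 among them. Of the 204 member probes above background, 4 passed 1.5-fold, 3 upward and 1 downward.

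The downward probe belonged to Rpl36a. It and the Rpl3l probe are shown beside the brightest Rpl36a probe, with every stretch in which A and G alternate over at least 6 bases in capitals.
Rpl36a probe 1, within chrX:122043889-122044262, plus strand: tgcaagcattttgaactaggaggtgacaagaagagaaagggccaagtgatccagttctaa
Rpl36a probe 4 (bases 1 to 30), from chrX:122044492-122044551, plus strand: aaagtagagtAGAGAGtcttatttacagtc
Rpl3l probe (bases 31 to 60), from chr10:13991825-13991884, plus strand: ctggcaccaagaAGAGAGtgatcacactga

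Rpl36a, a large-subunit gene, gave 61039 on the C array and 61901 on the RS array with probe 1, a difference of 0.12, and its probes 2 and 3 gave 0.11 and 0.09. Probe 4 gave 4100 and 518, a difference of -2.89. That probe lies downstream of the others on the genome, and no rn4 annotation was used here to say whether it falls in the transcript.

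Runs of this kind were found in 6 of the 205 member probes, and their median log2 difference was -0.43. Apart from the Rpl36a probe they included the Rpl3l probe (-0.38), a probe of Rpl14 (-0.03) and a probe of Rps28 (0.001). The Rpl14 and Rps28 probes were the only 2 of the 6 within 1.1-fold. Over all screened genes, 1013 of 21096 chosen probes held a run (4.80%), with a median of -0.46. Of the 85 chosen member probes only that of Rpl3l did. The part of the run in the difference was not tested.

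**Figure D3:**
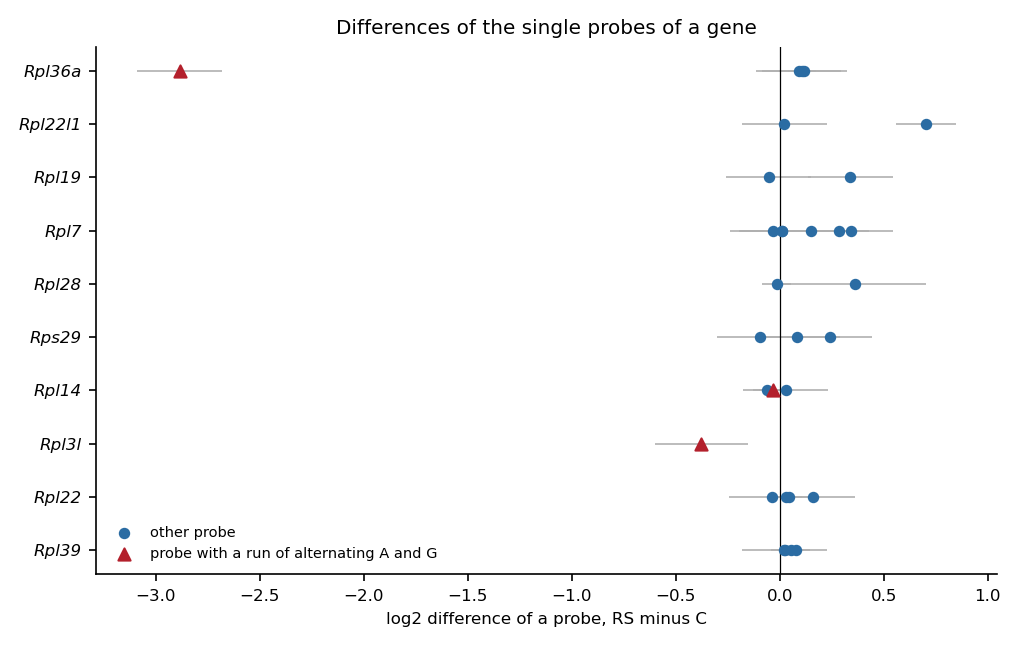
Log2 difference of every single probe (points, x axis) for 10 ribosomal protein genes: 6 of the 7 whose probes lay farthest apart, and Rpl14, Rpl3l, Rpl22 and Rpl39. Bars are 1 spot error to each side, and red triangles mark probes with a run of alternating A and G bases. The Rpl36a triangle lies at -2.89, away from the other probes of that gene.

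Members with and without the pyrimidine tract had similar medians. The 23 genes with the tract had a median of 0.04 and ran from -0.22 to 0.34, and the 45 measured genes without it had a median of 0.03 and ran from -0.38 to 0.77. The tract acts on translation, which the arrays did not measure.

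Fau and Rack1 also encode parts of the ribosome, although the name rule leaves them out. Fau, a ubiquitin-like fusion with a small-subunit protein, differed by -0.01. Rack1, the scaffold protein of the small subunit that the array names Gnb2l1, differed by -0.03. Neither passed 1.5-fold. Rps27a, a member whose product is fused to ubiquitin, differed by 0.07.

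Loci predicted to encode ribosomal proteins, many of them likely pseudogenes, had a similar median and a wider spread. Of 73 listed, 55 were measured, with a median of 0.02 and 33 above 0. Past 1.5-fold, 1 was higher, against 7.97% of all genes, and 4 were lower, against 8.46%. Of the 4, 2 were past 2-fold. These loci were dim: the 4 read 15.6 to 67.2 on the C array and 5.01 to 26.5 on the RS array. The higher one read 21.3 and 30.2. Among the 4, RGD1563194 and LOC100359711 missed the background limit on the RS array. The part of dim signal in the wider spread was not tested. On the C array the intensities of the 55 loci ran from 9.48 to 100981. Some of the bright ones share probe sequence with members, as LOC681260 does with Rps27a over 41 bases.

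Mitochondrial ribosomal proteins, which build the separate ribosome of the mitochondrion, had a median slightly below 0. Of 70 listed genes 69 were measured, with a median of -0.06, and 23 lay above 0 (33.3%), against 52.1% of all genes. The values ran from -0.37 (Mrps35) to 0.56 (Mrpl50), and 0 passed 1.5-fold. The genes next to these ends were Mrpl3 (-0.34) and Mrps18c (-0.32), and Mrpl4 (0.41) and Mrpl47 (0.36). The cytosolic median was 0.04, and the side of 0 on which it lies depends on the scaling. No test of the gap was possible with 1 array per group.

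**Figure D4:**
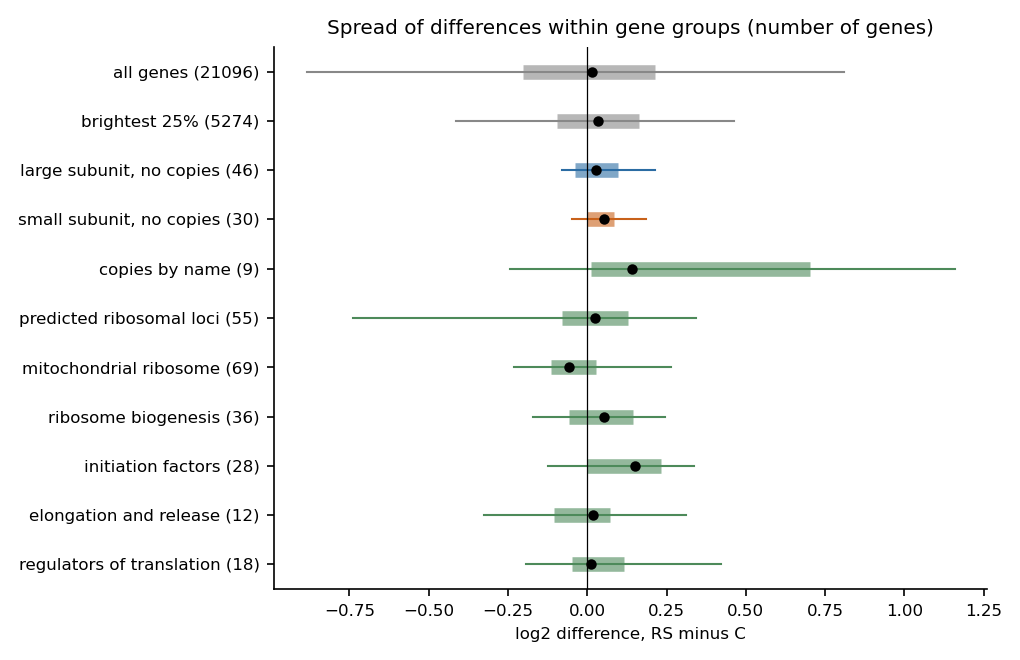
Log2 difference between the RS and the C array (x axis) for groups of genes, with the number of measured genes in parentheses. Points are medians, thick bars hold the middle 50% of genes and thin lines run from the 5th to the 95th percentile. The large- and small-subunit genes without copies have the narrowest bars, and the copies by name the widest.

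Genes that make or use ribosomes showed no shift past 1.5-fold as groups. Above 0 lay 52.1% of all genes and 58% of the brightest 25%. Of 41 ribosome biogenesis genes 36 were measured, with a median of 0.05, and 24 lay above 0 (66.7%). The highest were Gnl3 (0.54), which encodes nucleostemin, and the small nucleolar particle genes Gar1 (0.30) and Nop58 (0.23). The lowest were Utp20 (-0.42), Ltv1 (-0.22) and Rrs1 (-0.15). Utp20 was dim, with 23.4 on the C array and 16.4 on the RS array (spot error 0.28). None of the 36 passed 1.5-fold in either direction. Genes for initiation factors, which bring mRNA and ribosome together, had a median of 0.15 over 28 of 30 genes, with 21 above 0 (75%). The 95% limit of the spot error is narrower for probes in repeated spots. The part of spot number in the counts that follow was not tested. Beyond this limit, 11% of all genes were higher and 10.2% lower. Of the 28 initiation factors 7 were higher and 1 was lower beyond it. Eif3m passed it at 0.17 (spot error 0.06), while Eif4e at 0.26 did not (spot error 0.20). The highest were the RNA helicase Eif4a1 (0.51), Eif2s2 (0.37) and Eif3b (0.28), the lowest Eif3i (-0.16), Eif6 (-0.13) and Eif3f (-0.10), and 0 passed 1.5-fold.

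Elongation and release factors had a median of 0.02 over 12 genes, with 7 above 0 and 0 past 1.5-fold. The release factor Etf1 (0.38) and Eef1e1 (0.25) were at the high end. Eef2k (-0.37), the kinase that slows elongation, Eif5a (-0.29) and Eef1g (-0.14) were at the low end. Regulators of translation had a median of 0.01 over 18 genes, with 10 above 0. Past 1.5-fold, 1 of the 18 was higher, against 7.97% of all genes, and 0 were lower, against 8.46%. The higher one was Ddit4, an inhibitor of mTOR that glucocorticoids induce. It gave 4252 on the C array and 6758 on the RS array, a difference of 0.77. Larp4 differed by 0.36, Sesn2 by 0.24 and Larp1, which binds mRNAs with the pyrimidine tract, by 0.12. The kinase Eif2ak2, which halts initiation, was lowest at -0.24.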

How the data were processed

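The authors labeled lymph node RNA with Cy3, hybridized it to Agilent SurePrint G3 Rat arrays and extracted spots with Feature Extraction 11.5.1.1. The deposited intensity values are background-subtracted within each array and not normalized between arrays. The deposited table of log2 values is on the same scale as the values computed here (100% agree within 0.1). Its column medians were -3.51 (C) and -3.54 (RS).

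Control probes and flagged spots (489 on the C array, 660 on the RS array) were left out, a probe's spots were averaged as log2 intensities, and each array's 75th percentile (45598 probes) was then taken off. A probe was well above background where over 50% of its spots were so marked. A gene is its probe with the highest mean signal. For genes above background on 1 array (972 on RS, 910 on C), the dim side was set to at least 9.45 (C) or 8.52 (RS), and 10 genes without a bound counted as 0. Both arrays lay on 1 slide and 1 scan. The 8 measured spike-in probes differed by a median of -0.02 after scaling.

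Members and lists were chosen with earlier results of these data known. Named genes are the 10 highest and lowest members, the 5 with the highest signal, the stalk genes and Rpsa, all copies, all past 1.5-fold, and up to 3 at each end of a list; Rpl6, Rps6, Rpl30, Rpl22, Rpl36a and other genes named for their probes or namesakes were chosen after their values were seen. Some genes that the rule selects are left out of this text and its plots. RefSeq accessions matched 82 of 86 members (GRCr8), 79 with the same symbol. The steps were tested on simulated arrays. Python 3.11.15, numpy 2.4.6, pandas 2.3.3, matplotlib 3.10.9, R 4.3.3 and limma 3.58.1 were used.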

Additional observations from a re-analysis of the deposited data

How the results depend on the processing

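The medians, counts and shares of the ribosomal protein genes were recomputed under 14 alternatives: 5 scalings, normexp, the deposited table, the mean over probes, flagged spots kept, 2 filters on dim probes, and leaving out probes with A and G runs, copies, or genes with shared probe runs (the last chosen after seeing the data). A median counted as unmoved within 0.07, the spread between spots, a share within 10 percentage points, and a count up to a ratio of 1.5. By this rule 131 values stayed and 9 moved. The limit for medians is wider than the reported medians themselves, so a change of side can pass as unmoved. A count of 3 could likewise lose 1 gene without counting as moved. Without scaling between arrays the medians were -0.056 over all members, -0.068 over the large and -0.048 over the small subunit, and 25.9% of members lay above 0; the median of all genes moved to -0.083. With normexp 55.3% lay above 0. Leaving out the copies gave 0 members higher past 1.5-fold and 0 past 2-fold. With no filter on dim probes 2 were higher past 2-fold, Rpl39l being added. With the mean over all probes 1 was lower past 1.5-fold, Rpl36a. Of the named genes' values 406 stayed and 13 moved, 9 of them without scaling. No paired analysis was possible because the design holds 1 array of C and 1 of RS, and no replicate could be left out. Signal over background limits Rpl39l, and 1 array per group limits every value.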
